A study of Homo sapiens with 121 samples.

Results

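NODAL, GDF3 and the genes through which they signal were examined in single human embryonic stem cells (hESCs) whose telomere length was measured in the same cell. The 10 genes were chosen by name, of 25610 genes read from the table: the ligands NODAL and GDF3, the co-receptor TDGF1, the receptors ACVR1B and ACVR2B, the effectors SMAD2 and FOXH1 and the secreted inhibitors LEFTY1, LEFTY2 and CER1. All 10 passed the filter of a mean of 1 TPM, a measure of transcript abundance scaled for gene length and library, and so did 13439 genes in all. The 121 cells were cells of the hESC line WA26, grown without feeder cells in E8 medium on Matrigel. In scT&R-seq, messenger RNA of a lysed cell is caught on beads for RNA-seq, and the remaining genomic DNA is used for a qPCR of telomere (T) against Alu (R) repeats. The labels place 81 cells in a long, 25 in a medium and 15 in a short telomere group, which the methods define by the T/R ratio.

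NODAL and GDF3 are secreted ligands of the TGF-β superfamily. They bind type I and type II serine/threonine kinase receptors, among them ACVR1B and ACVR2B, together with the membrane-anchored co-receptor TDGF1 (also called Cripto). The receptors phosphorylate SMAD2, which enters the nucleus with SMAD4 and acts at DNA with partners such as FOXH1. NODAL, LEFTY1 and LEFTY2 are themselves known targets, so that the pathway drives both its ligand and its inhibitors, and hESCs depend on it to stay undifferentiated.

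The coexpression described later joins NODAL with LEFTY1 and LEFTY2, but no promoter entry was matched for either LEFTY gene. The sequences upstream of the genes are shown for both ligands and for the inhibitor CER1, of which only NODAL belongs to that group. Each is the 250 bases before the gene start in RefSeq (GRCh38.p14, minus strand), at chr10:70441682-70441931 for NODAL, chr12:7695776-7696025 for GDF3 and chr9:14722734-14722983 for CER1. Capitals mark the SMAD box, the letters CAGAC or, on the other strand, GTCTG.
NODAL: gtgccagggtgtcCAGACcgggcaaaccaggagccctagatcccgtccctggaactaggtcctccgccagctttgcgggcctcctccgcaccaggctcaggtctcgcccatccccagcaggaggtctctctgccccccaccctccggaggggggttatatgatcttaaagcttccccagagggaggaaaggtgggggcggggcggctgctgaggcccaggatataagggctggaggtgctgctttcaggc
GDF3: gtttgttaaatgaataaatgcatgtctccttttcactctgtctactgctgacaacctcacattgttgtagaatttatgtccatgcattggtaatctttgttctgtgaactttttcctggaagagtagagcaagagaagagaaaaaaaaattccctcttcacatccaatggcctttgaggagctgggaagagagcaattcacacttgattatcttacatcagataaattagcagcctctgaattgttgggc
CER1: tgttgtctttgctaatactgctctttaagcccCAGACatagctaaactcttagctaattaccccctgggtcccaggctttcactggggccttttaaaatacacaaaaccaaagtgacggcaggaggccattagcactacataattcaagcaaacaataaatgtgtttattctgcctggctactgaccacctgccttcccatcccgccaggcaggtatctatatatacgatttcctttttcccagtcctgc
The SMAD box was found once before NODAL, starting 237 bases from the gene start, and once before CER1, starting 218 bases away. It was not found before GDF3, and 38.0% of the 35116 promoters searched held it. Neither the FOXH1 core AATCCACA, which 0.709% of these promoters held, nor the SMAD palindrome GTCTAGAC, which 0.182% held, nor the TATA box TATAAA, which 10.7% held, was in any of these sequences on either strand. A match is a match of letters in this window, and its absence says nothing about the factor. Promoter entries were matched for 6 of the 10 genes, the others being SMAD2, ACVR1B and ACVR2B, and not for LEFTY1, LEFTY2, TDGF1 and FOXH1.

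The labels tie no cell to a culture or batch, and each telomere group therefore counted as 1 sample. Values are given as mean ± SD across cells, differences and correlations are descriptions, and none carries a p-value. TPM keeps no read number, so the depth behind a value is unknown. A gene was called detected above a TPM of 1. Cells had 2030 to 11515 detected genes, with medians of 9165 (long), 8626 (medium) and 5620 (short). Each result was therefore also computed in the 68 cells with over 8000 detected genes (51 long, 14 medium and 3 short), called gene-rich, and in the 53 others (30 long, 11 medium and 12 short), called gene-poor. This border was chosen after the values were seen. All 11 hESC marker genes examined were detected in at least 50% of cells, among them POU5F1 in all 121. Of 5 lists of 5 lineage markers each (endoderm, mesoderm, neuroectoderm, trophoblast or amnion, and fibroblast), 1 gene was detected in at least 50% of cells, COL1A2 of the fibroblast list (63.6%, up to 195.2 TPM). KRT7 of the trophoblast list was detected in 38.0% of cells with up to 206.64 TPM, MIXL1 of the mesoderm list in 38.0% and PAX6 of the neuroectoderm list in 27.3%. GATA6, HAND1, NEUROG2 and LUM were listed at 0 in all 121 cells, which allows up to 2.48% of cells with a value above 0 and sets no limit on cells that express them. These markers were named after their values were seen.

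The ligands, the co-receptor and FOXH1 were the most abundant of the 10 genes. TDGF1 had a median of 731 TPM and GDF3 of 69.0 TPM, and FOXH1 (25.6 TPM) and NODAL (9.69 TPM) followed. ACVR2B and SMAD2 lay at medians of 7.44 and 6.14 TPM, and LEFTY1, LEFTY2, ACVR1B and CER1 at 0. On the log2 (TPM + 1) scale, the mean level of TDGF1 (8.99 ± 1.72, SD, n = 121 cells) stood above that of GDF3 (5.07 ± 2.91) by more than either SD. Every other pair of neighbours in the order of mean log2 levels, FOXH1 (4.25 ± 2.14), NODAL (2.78 ± 2.52), ACVR2B (2.73 ± 1.48), SMAD2 (2.45 ± 1.51), LEFTY1 (1.84 ± 2.53), LEFTY2 (0.99 ± 1.80), ACVR1B (0.98 ± 1.25) and CER1 (0.23 ± 1.03), differed by less than 1 SD.

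NODAL was detected in 71 of 121 cells (58.7%, exact 95% interval 49.4% to 67.6%, which covers the counting of cells only). Its TPM ran from 0 through a median of 10.2 to 129.61 in long telomere cells, from 0 through 10.2 to 90.32 in medium and from 0 through 0 to 34.83 in short telomere cells. The ranges overlapped, and 24 long, 12 medium and 10 short telomere cells were listed at 0. GDF3 ran from 0 through 89.66 to 751.27 TPM in long, from 0 through 60.44 to 309.44 in medium and from 0 through 0.48 to 330.15 in short telomere cells. GDF3 was thus detected in 87.7%, 92.0% and 40.0% of cells, in the same order, and the highest short telomere cell stood above the median long one.

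TDGF1, the co-receptor, was the most often detected of the 10, in 119 of 121 cells. It ran from 191.61 through 796.08 to 1900.11 TPM in long, from 2.09 through 641.05 to 1741.97 in medium and from 0.6 through 117.81 to 1313.46 in short telomere cells. No long telomere cell fell below 191.61 TPM, whereas 4 of 25 medium and 9 of 15 short telomere cells did. All 9 of these short telomere cells were gene-poor. The type I receptor gene ACVR1B was low throughout, with medians of 0.22 (long), 0.27 (medium) and 0 TPM (short) and highest values of 20.37, 9.3 and 5.29 TPM. The type II receptor gene ACVR2B was detected in 98 of 121 cells, with medians of 7.57, 7.26 and 3.47 TPM and highest values of 71.42, 19.37 and 19.19 TPM in the same order.

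SMAD2, the intracellular effector, ran from 0 through 7.36 to 42.6 TPM in long, from 0 through 6.14 to 17.25 in medium and from 0 through 0 to 9.02 in short telomere cells. It was detected in 84.0%, 76.0% and 40.0% of these cells. The DNA-binding partner FOXH1 ran from 0 through 25.75 to 1845.8 TPM in long, from 0 through 27.43 to 134.87 in medium and from 0 through 11.08 to 786.8 in short telomere cells. Its highest values came from single cells, since long telomere cell 4 alone held 28.2% of the summed FOXH1 TPM and short telomere cell 8 a further 12.0%.

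The inhibitors were each detected in under 50% of cells. LEFTY1 was detected in 33 of 81 long, 9 of 25 medium and 4 of 15 short telomere cells and reached 543.17, 175.73 and 142.46 TPM in them. LEFTY2 was detected in 25, 5 and 1 cells of these groups and reached 64.03, 60.85 and 17.84 TPM. CER1, which binds NODAL outside the cell, was detected in 7 cells (4 long, 2 medium and 1 short), all gene-rich. Long telomere cell 79 at 77.76 TPM and short telomere cell 10 at 61.37 TPM held 40.5% and 31.9% of its summed TPM.

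**Figure D1:**
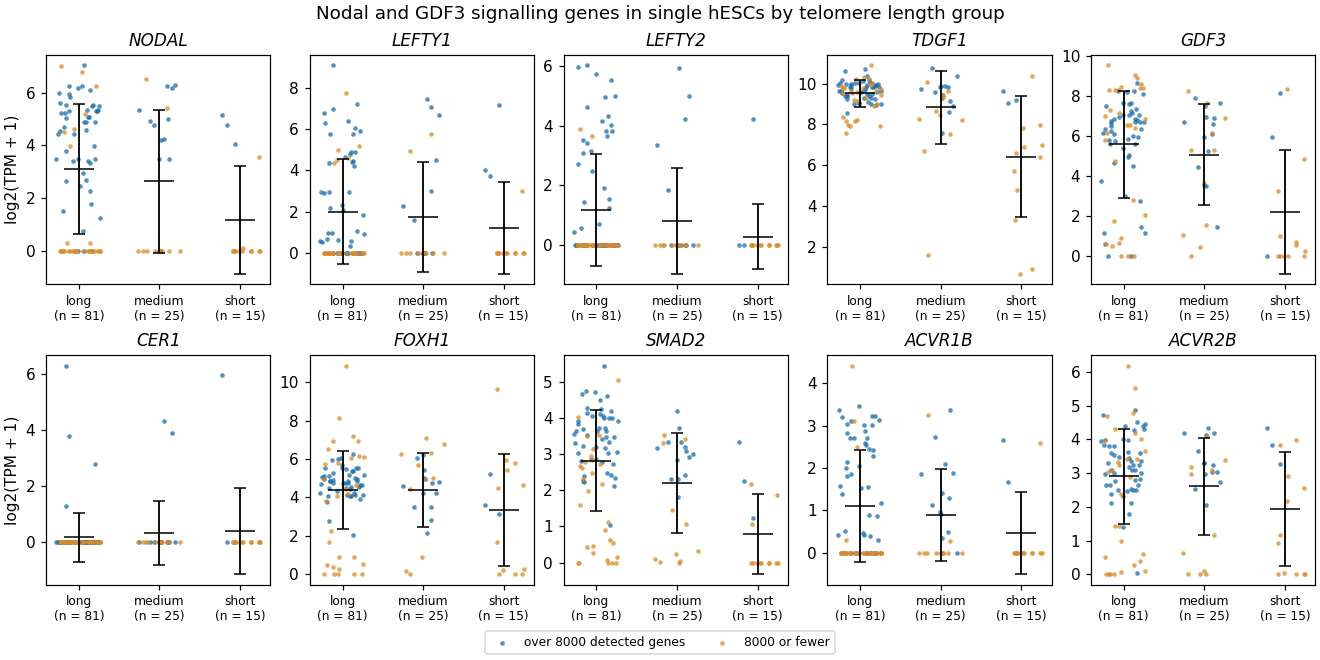
Level of each gene in every cell, as log2 (TPM + 1) on the vertical axes, for 81 long, 25 medium and 15 short telomere cells. Points are cells, blue with over 8000 detected genes and orange with 8000 or fewer, and the bars show the mean ± SD across cells. TDGF1 forms a narrow band in long telomere cells and spreads downwards in short ones, and NODAL and both LEFTY genes have many cells at 0, mostly gene-poor.

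Some of these genes share sequence with others, which bears on 50-base reads. In the GRCh37 (hg19) annotation, NODAL lies at chr10:72191692-72207707 and GDF3 at chr12:7842380-7848371, both on the minus strand. LEFTY1 (chr1:226073982-226099082) and LEFTY2 (chr1:226124298-226129083) are neighbours on the minus strand, and 31.3% of the 50-base windows of the LEFTY1 transcript were also found in LEFTY2. Of TDGF1 (chr3:46616024-46623947, plus strand), 38.1% of windows were shared with TDGF1P3, which had 3.80 ± 1.43 log2 (TPM + 1) in long telomere cells. Of FOXH1, 37.7% were shared with KIFC2, which overlaps it on the opposite strand. KIFC2 was at 4.44 TPM in long telomere cell 4, the cell in which FOXH1 was at 1845.8 TPM. An annotated gene on the opposite strand covers 33.9% of NODAL. The levels of LEFTY1, LEFTY2, TDGF1 and of genes overlapped on the other strand are uncertain to that extent, while GDF3, CER1 and ACVR1B shared no window.

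The detection of NODAL went with the number of genes detected in a cell. NODAL was detected in 89.7% of gene-rich and 18.9% of gene-poor cells, and its mean log2 (TPM + 1) was higher in gene-rich cells by 3.11, which is at the 99.2 percentile of all genes, whose median difference was 0.96. The difference was 2.01 for SMAD2, 1.76 for LEFTY1 and 1.51 for LEFTY2, and 0.98 for FOXH1. TDGF1 was detected in 96.2% of gene-poor cells and GDF3 in 67.9%, so that these were the members most often kept there. CER1 was detected in 0 of 53 gene-poor cells, which allows up to 5.66% of such libraries with CER1 above TPM 1. This sets no limit on the cells that express it, since the median gene was detected in 34.0% of gene-poor and 80.9% of gene-rich cells. Gene-rich cells had 7.49 ± 1.33 of the 10 genes detected and gene-poor cells 3.83 ± 1.81. The part of depth and of RNA content in this was not tested, and fewer molecules in a cell cannot be told apart from fewer molecules caught.

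Cell-to-cell variability was measured by the squared coefficient of variation (CV2) of TPM and compared with a curve fitted to all genes, in which CV2 falls with the mean. LEFTY1 and CER1 stood above that curve over all and in gene-rich cells, LEFTY2 in gene-rich cells only, and the receptors and SMAD2 below it in both. Over all cells, 3 of the 10 genes (LEFTY1, FOXH1 and CER1) lay above the curve, against 22.3% of all genes. In gene-rich cells 5 did (NODAL, LEFTY1, LEFTY2, GDF3 and CER1), against 26% of 12798 genes. The CV2 of LEFTY1 was 8.20 over all cells and 5.70 in gene-rich cells, where its ratio to the curve was at the 99.4 percentile of genes. GDF3 had a CV2 of 0.795 in gene-rich cells (96.3 percentile of the ratio), LEFTY2 of 3.39 (94.2 percentile) and NODAL of 0.763 (85.6 percentile).

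FOXH1 was an exception that turned on a few gene-poor cells. Its CV2 was 11.3 over all cells, at the 97.8 percentile of the ratio to the curve, 3.98 without long telomere cell 4, and 0.315 in gene-rich cells, at the 39.1 percentile. LEFTY1 had a CV2 of 5.12 without its highest cell, long telomere cell 54. TDGF1 had the lowest CV2 of the 10 genes, 0.293 over all cells and 0.120 in gene-rich cells. Its mean was also the highest, and its ratio to the curve was at the 21.0 percentile over all cells and the 57.5 percentile in gene-rich cells. SMAD2, ACVR1B and ACVR2B were at the 3.50, 1.35 and 7.83 percentiles over all cells and the 13.3, 5.70 and 7.09 percentiles in gene-rich cells.

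**Figure D2:**
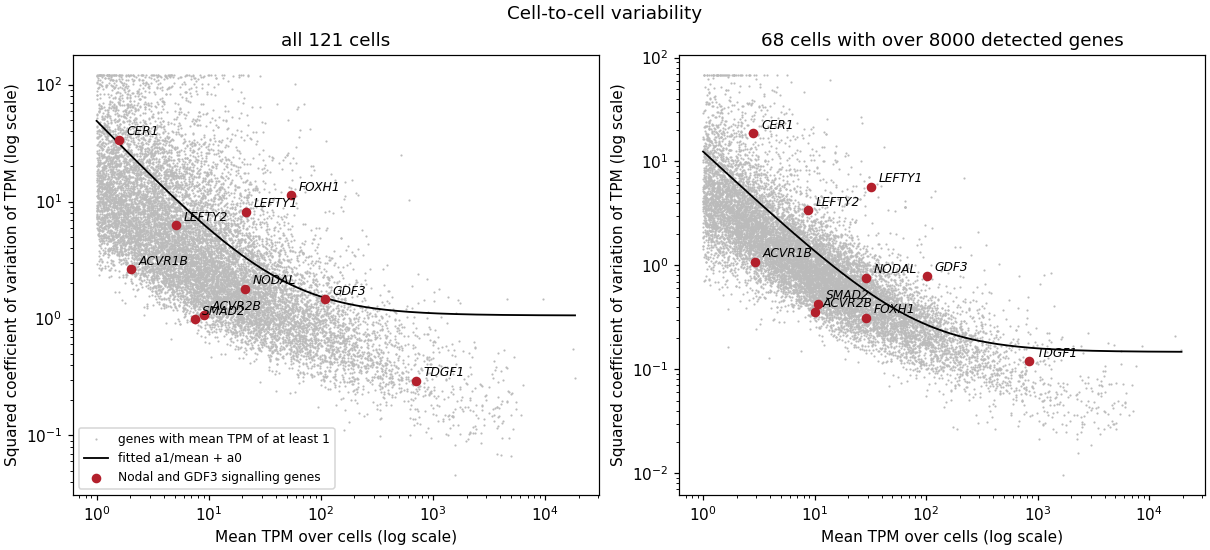
CV2 of TPM (vertical, log scale) against mean TPM (horizontal, log scale) for 13439 (left) and 12798 (right) genes that averaged 1 TPM or more (grey), the fitted curve (black) and the 10 Nodal and GDF3 signalling genes (red), over all 121 cells on the left and the 68 gene-rich cells on the right. LEFTY1 lies above the curve in both panels, and FOXH1 lies above it on the left at 11.3 and below it on the right at 0.315.

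LEFTY1 and LEFTY2 were detected almost only in cells that also had NODAL. Of the 46 cells with LEFTY1 detected, 45 (97.8%) also had NODAL, which was 63.4% of the 71 cells with NODAL. Of the 31 cells with LEFTY2 detected, 30 (96.8%) had NODAL, and 23 (74.2%) had LEFTY1. In gene-rich cells, all 37 cells with LEFTY1 and all 29 with LEFTY2 had NODAL, beside a detection of NODAL in 61 of 68 (89.7%). In gene-poor cells NODAL was detected in 10 of 53, and 8 of the 9 cells with LEFTY1 were among them. LEFTY2 was detected in 2 gene-poor cells, 1 of them with NODAL. Either inhibitor without NODAL was seen in 1 cell each. This was not particular to NODAL. TDGF1 (detected in 119 of 121 cells) and ACVR2B (98) were found in all 46 cells with LEFTY1 and all 31 with LEFTY2. SMAD2 (93 of 121) was found in 44 of the cells with LEFTY1 and all 31 with LEFTY2.

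Spearman's rho between NODAL and LEFTY1 was 0.715 over 121 cells, 0.596 given the number of detected genes, 0.504 in gene-rich and 0.724 in gene-poor cells. Of 11017 genes detected in at least 25% of cells, LEFTY1 ranked 1 for NODAL by the rho given the number of detected genes, 3 by the plain rho and 7 within gene-rich cells. For LEFTY2 and NODAL, rho was 0.475 over all cells, 0.208 given the number of detected genes and 0.388 in gene-rich cells. For LEFTY1 and LEFTY2, which share sequence, it was 0.462 and, in gene-rich cells, 0.400. Cells in these correlations share 1 line, and the depth of a library enters every gene, so that a rho of at least 0.3 with NODAL was reached by 39.1% of the 11017 genes over all cells and by 2.21% in gene-rich cells, where 1.33% reached it with LEFTY1.

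Over the 45 pairs of the 10 genes, the median rho was 0.176 over all cells, and 13 pairs had at least 0.3. In gene-rich cells the median was −0.0064, and the 3 pairs with at least 0.3 were those among NODAL, LEFTY1 and LEFTY2. GDF3, the other ligand, had a rho with NODAL of 0.143 over all and 0.0629 in gene-rich cells. It had its highest rho in gene-rich cells with LEFTY2 (0.294) and its lowest with the receptor gene ACVR2B (−0.372). FOXH1 and NODAL had a rho of 0.0099 over all cells and −0.101 in gene-rich cells, and SMAD2 and NODAL 0.481 and 0.0384. TDGF1 and NODAL had 0.388 and 0.268.

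**Figure D3:**
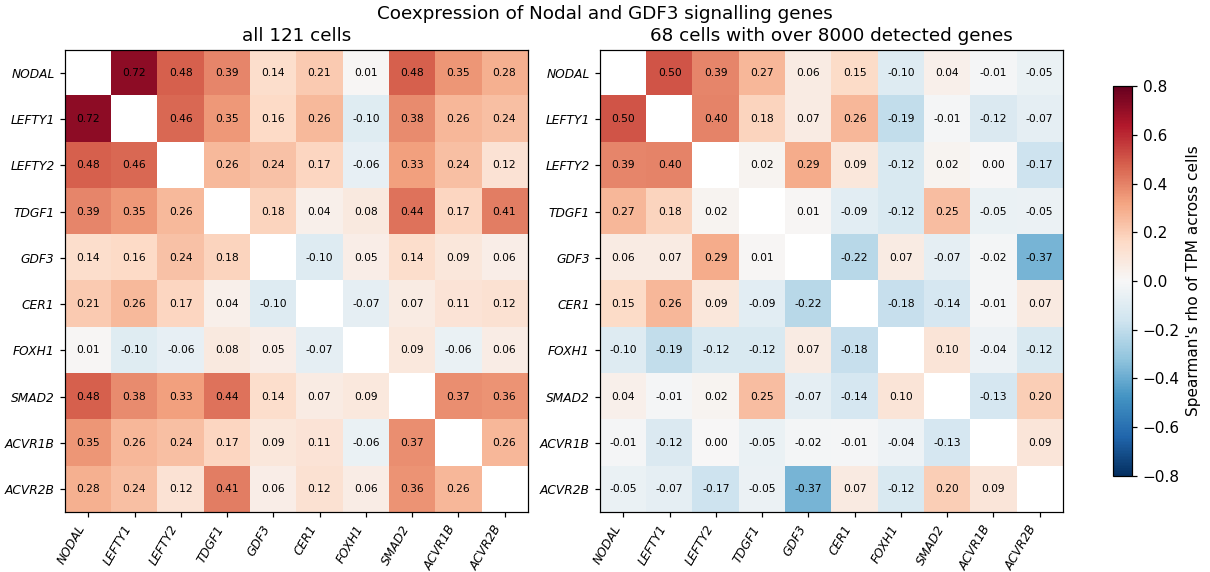
Spearman's rho of TPM across cells for each pair of the 10 genes, over all 121 cells on the left and the 68 gene-rich cells on the right, with red for positive and blue for negative values. Most pairs on the left are positive, and on the right the block of NODAL, LEFTY1 and LEFTY2 holds the 3 values of at least 0.3.

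**Figure D4:**
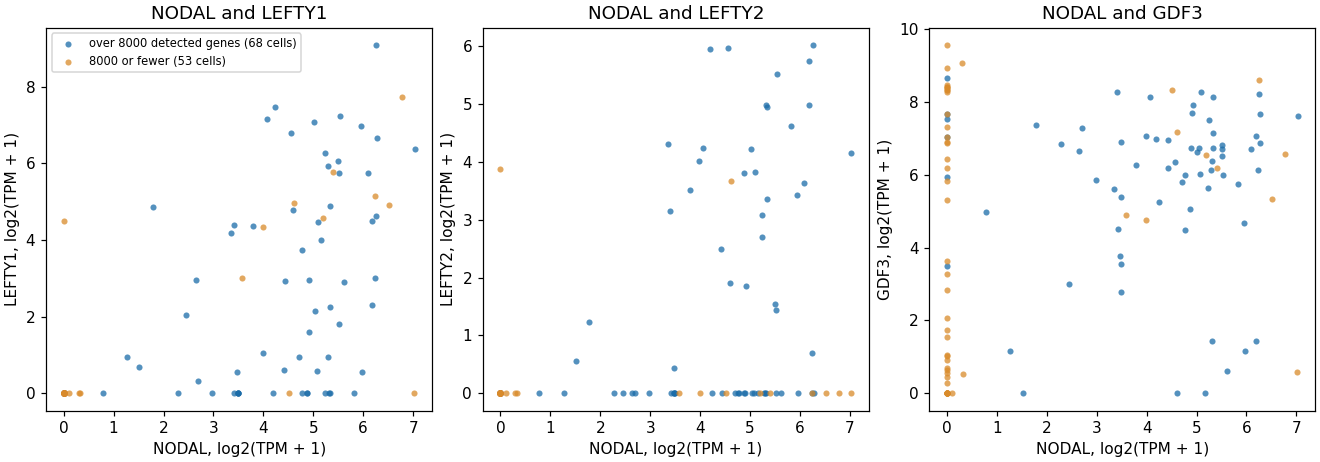
Log2 (TPM + 1) of LEFTY1, LEFTY2 and GDF3 (vertical) against that of NODAL (horizontal) in each cell, blue for 68 gene-rich and orange for 53 gene-poor cells. Cells with LEFTY1 or LEFTY2 lie to the right, where NODAL was detected, apart from 1 cell each, while GDF3 was present with and without NODAL.

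The genes most like each member were ranked by rho given the number of detected genes, over 121 cells and 11017 genes. For NODAL they were LEFTY1 (0.596), CAV1 (0.540), a coat protein of caveolae, and RAP1GAP2 (0.530). For LEFTY1 they were NODAL, CAV1 (0.475) and the ribosomal protein gene RPS27A (0.474), and for LEFTY2 they were EEF1A2 (0.480), SLC25A21 (0.349) and WNT3 (0.343), the last a ligand of the WNT family. In gene-rich cells the rho of NODAL with CAV1 was 0.570. TDGF1 was most like YTHDF2 (0.507), a reader of methylated adenosine in RNA, and GDF3 most like the splicing factor gene SF3B5 (0.488). FOXH1 was most like the tubulin gene TUBA1B (0.461), SMAD2 like CEP170 (0.475), ACVR1B like TRIO (0.419) and ACVR2B like the mitochondrial ADP/ATP carrier SLC25A5 (0.505). The other genes named by this rule were UGDH and CCDC169 for TDGF1, SYNCRIP and SCG3 for GDF3, and PDIA6 and LSR for FOXH1. They were FIRRE and SNX13 for SMAD2, TMSB4X and CLDN4 for ACVR1B, and TMEM64 and HIF1A for ACVR2B. All of these had 0.349 to 0.498. Within gene-rich cells, the plain rho with the first-ranked gene ran from 0.271 (GDF3 with SF3B5) to 0.504 (NODAL with LEFTY1). Some genes of lower rank had little relation there, with 0.039 for SYNCRIP, 0.109 for CLDN4 and 0.122 for LSR.

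Between telomere groups, TDGF1, GDF3, SMAD2 and NODAL had their higher means in the long telomere group, and 79.2% of all genes likewise differed in that direction. The difference of mean log2 (TPM + 1), long minus short, was 3.38 for GDF3 (5.60 ± 2.70 against 2.21 ± 3.11) and 3.09 for TDGF1 (9.52 ± 0.66 against 6.43 ± 2.95). It was 2.03 for SMAD2 (2.83 ± 1.40 against 0.79 ± 1.12), 1.94 for NODAL (3.12 ± 2.46 against 1.18 ± 2.03) and 1.03 for FOXH1 (4.37 ± 2.02 against 3.34 ± 2.91). These 5 of 10 genes were at least 1 higher in long telomere cells, against 38.9% of all genes, and none was at least 1 lower, against 3.75%. The median over the 10 genes was 1.00, beside 0.70 over all genes. GDF3 and TDGF1 were at the 99.5 and 99.0 percentiles of all genes, and TDGF1 was higher in the long cell in 86.7% of long-short pairs.

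ACVR2B (0.97), LEFTY2 (0.89), LEFTY1 (0.80) and ACVR1B (0.64) differed by about as much as the median gene, and CER1 by −0.22. Over all cells, 0 of 10 genes were at least 1 higher in long than in medium cells (0.893% of all genes), and in gene-poor cells 2 were, TDGF1 by 1.27 and GDF3 by 1.13 (5.97% of all genes). Over all cells, 5 were at least 1 higher in medium than in short cells (33.8% of all genes). Long telomere cells had 6.27 ± 2.16, medium 5.88 ± 2.35 and short 3.80 ± 2.70 of the 10 genes detected.

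Among gene-rich cells, the 5 genes at least 1 higher over all cells had smaller differences or, for NODAL, the other direction, with only 3 short telomere cells on the short side. TDGF1 was at 531.92, 588.38 and 804.59 TPM in short telomere cells 1, 3 and 10, inside the range of 373.4 to 1655.92 TPM of the 51 long ones. NODAL was at 26.24, 15.73 and 34.83 TPM and SMAD2 at 3.75, 1.37 and 9.02 TPM in these cells, likewise inside the ranges of long ones. GDF3 was at 62.03, 282.09 and 0 TPM, so that its 3 cells spanned most of the range. Here the long minus short difference was 0.36 for TDGF1, 1.04 for GDF3, 1.21 for SMAD2 and −0.48 for NODAL. SMAD2 and GDF3 were the 2 genes at least 1 higher (11.4% of all genes), and LEFTY1 (−2.42) and CER1 (−1.71) the 2 at least 1 lower (9.37%). Short telomere cell 10 decided GDF3 and CER1: without it, the difference was −1.32 for GDF3 and 0.28 for CER1. For GDF3, 56.2% of long-short pairs were higher in the long cell. Without short telomere cell 3, the difference was 0.70 for SMAD2 and 2.76 for GDF3. In these 3 cells LEFTY1 was at 12.33, 142.46 and 15 TPM.

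Among gene-poor cells, TDGF1 (3.55), GDF3 (3.75) and SMAD2 (1.28) were the 3 genes with means at least 1 higher in long telomere cells, 30 against 12 (26.4% of all genes). For TDGF1, the mean was 9.26 ± 0.86 against 5.71 ± 2.87, at the 99.4 percentile of genes. NODAL differed by 0.99 there. SMAD2 and GDF3 were thus at least 1 higher in long telomere cells on both sides of the border. On the gene-rich side, however, GDF3 turned to −1.32 without short telomere cell 10, and SMAD2 fell to 0.70 without cell 3. TDGF1 was at least 1 higher on the gene-poor side and over all cells, and 0.36 higher in gene-rich cells. FOXH1 (0.81 and 0.49), LEFTY2 (0.31 and 0.25) and ACVR1B (0.11 and 0.13) were higher by less than 1 in gene-rich and gene-poor cells. The part of the number of detected genes in the differences over all cells was not tested.

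**Figure D5:**
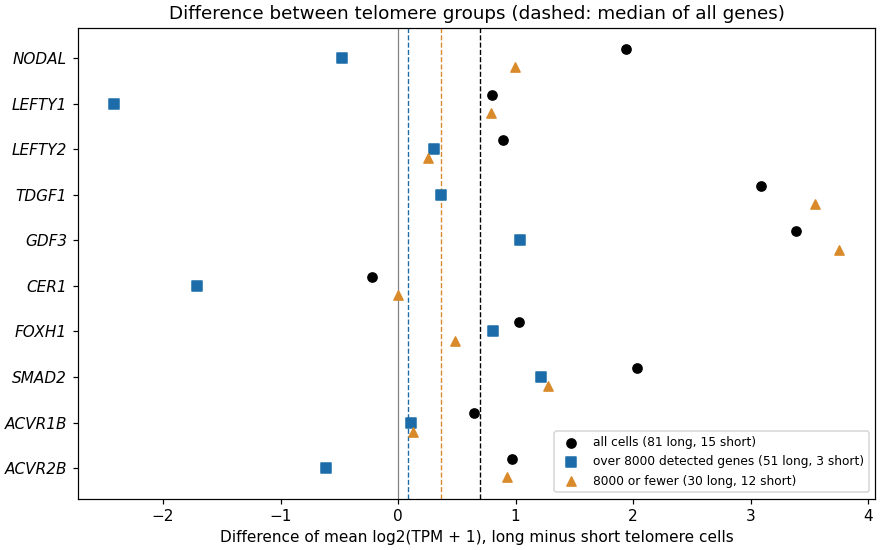
Difference of mean log2 (TPM + 1), long minus short telomere cells, for each gene, over all cells (black circles), gene-rich cells (blue squares, 51 long and 3 short) and gene-poor cells (orange triangles, 30 long and 12 short), with dashed lines at the median of all genes. TDGF1 lies at 3.09 and 3.55 over all and gene-poor cells but at 0.36 over gene-rich cells, and LEFTY1 turns from 0.80 to −2.42.

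Expression was also set beside the T/R ratio of the same cell, as the study lists it. TDGF1 had the highest Pearson's r of TPM with the T/R ratio of the 10 genes, 0.310 (Spearman's rho 0.325, n = 121 cells), at the 98.9 percentile of all genes. SMAD2 followed with 0.222 (rho 0.320), ACVR2B with 0.208 (rho 0.176) and FOXH1 with 0.140 (rho 0.106). The r of FOXH1 was −0.0497 without long telomere cell 4. NODAL (−0.00089, rho 0.0834), LEFTY1 (−0.0413, rho 0.0564) and LEFTY2 (−0.0634, rho 0.0376) were near 0, GDF3 was at 0.103 (rho 0.136), ACVR1B at 0.0523 (rho 0.0661), and CER1 had the lowest r, −0.140 (rho −0.138). The r was above 0 for 6 of 10 genes, against 53.2% of all genes. With the 2 cells of most extreme T/R ratio left out, r was 0.365 for TDGF1 and 0.285 for SMAD2.

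For SMAD2, the coefficients were positive on both sides of the border, with rho of 0.339 in gene-rich (r = 0.309, 98.4 percentile of genes) and 0.379 in gene-poor cells (r = 0.225). For TDGF1, rho was 0.144 in gene-rich (r = 0.166) and 0.529 in gene-poor cells (r = 0.408). Within the 81 long telomere cells, however, r was −0.0481 for TDGF1 (rho −0.0642) and −0.0942 for SMAD2 (rho −0.0325). The pooled relation was thus not seen in the plain coefficients inside this group. Given the number of detected genes, rho was 0.0036 for TDGF1 and 0.129 for SMAD2. NODAL had an r of −0.238 (rho −0.262), LEFTY2 of −0.234 (rho −0.279) and GDF3 of −0.123 (rho −0.260) within long telomere cells. Given the number of detected genes, these rho values were −0.161, −0.189 and −0.262. The median rho over all genes was −0.068 in this group, and rho was above 0 for FOXH1 (0.106) and ACVR2B (0.040). Within the 25 medium telomere cells, r was 0.360 for TDGF1 (rho 0.278) and 0.150 for SMAD2 (rho 0.153). Given the number of detected genes, the rho values in medium cells were 0.134 and −0.015. Within the 15 short telomere cells, r was 0.528 for ACVR2B (rho 0.613) and 0.482 for TDGF1 (rho 0.404), beside a median rho of 0.269 over all genes. Given the number of detected genes, these rho values were 0.457 and 0.194.

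The rest of the pathway was read from lists of ligands, receptors, co-factors, inhibitors, repressors and targets. Of 12 ligands of the activin and Nodal branch, 2 (NODAL and GDF3) were detected in at least 50% of cells, and MSTN and INHBC were listed at 0 in all. Both genes of CFC1, the other co-receptor family, were listed at 0, which left TDGF1 as the co-receptor seen. Of 7 receptors, 3 were detected in at least 50% of cells, and 1 of the 5 that averaged 1 TPM or more was at least 1 higher in long telomere cells (38.9% of all genes; median difference 0.95, beside 0.70 over all genes). Of 7 effectors and co-factors, 4 were at least 1 higher (38.9% of all genes; median 1.03), and DRAP1, which binds FOXH1 and represses it, was level (5.78 ± 1.78 against 5.74 ± 3.15). The rho of DRAP1 with NODAL was −0.477 over all cells, −0.278 given the number of detected genes and −0.256 in gene-rich cells. Of the 7 genes of this list, 4 had a rho of at least 0.3 with NODAL over all cells (39.1% of all genes). In gene-rich cells 1 did (2.21%). Among 9 intracellular repressors of SMAD signalling, unlike DRAP1, 7 had a rho of at least 0.3 with NODAL over all cells (39.1% of all genes). In gene-rich cells 3 of these repressors did (2.21%).

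Of 9 intracellular repressors of SMAD signalling, 5 were at least 1 higher in long telomere cells over all cells (38.9% of all genes; median 1.55). In gene-rich cells 0 were at least 1 higher (11.4% of all genes) and 2 at least 1 lower (9.37%), with a median of −0.18. TGIF1 differed by 2.70, TGIF2 by 2.51 and SKIL by 1.65 over all cells, and by −0.30, 0.19 and 0.46 in gene-rich cells. Of 6 secreted inhibitors, 0 were at least 1 higher (38.9% of all genes) and 1 was at least 1 lower in long telomere cells (3.75%), with a median of −0.22 over the 5 that passed the filter. In gene-rich cells 3 were at least 1 lower (9.37%). The gene lower over all cells was DAND5, a relative of CER1, with 1.55 ± 1.27 in long and 3.24 ± 3.07 in short telomere cells, a difference of −1.69 over all cells, 0.65 in gene-rich and −1.97 in gene-poor cells. Follistatin, FST, which traps activin, had 1.09 ± 1.66 in long and 1.91 ± 2.74 in short telomere cells.

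Genes tied to Nodal signalling in mesendoderm, the forerunner of mesoderm and endoderm, were mostly rare. MIXL1, a homeobox gene of that stage, was detected in 46 of 121 cells with up to 103.82 TPM, and WNT3 in 34 cells with up to 17.41 TPM. MIXL1 had 1.28 ± 1.52 in long and 2.17 ± 2.28 log2 (TPM + 1) in short telomere cells. Its rho with NODAL was 0.314 over all cells, 0.240 given the number of detected genes and 0.385 in gene-rich cells. For WNT3 and NODAL, rho was 0.443, 0.154 and 0.362 in the same order. EOMES, GSC, T, FOXA2, SOX17, GATA4, GATA6 and FGF17 were detected in at most 9 cells each, and GATA6 in none. The genes of this paragraph other than WNT3, and the genes listed at 0, were named after their values were seen.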

How the data were processed

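Single WA26 hESCs were analysed by scT&R-seq with 50-bp single-end reads. According to the methods, the authors mapped reads to hg19 with TopHat 2.1.0, obtained counts for RefGene genes by HTSeq and used a size factor, and the submitters' processing notes name TopHat2 and RSEM. The authors deposited 1 table of TPM values with 2 decimals, read here for 25610 genes in alphabetical order, which sum to 979828 to 997050 per cell. The row after them was incomplete and was not used. TPM keeps no depth, and reads per cell were not used. Cells were grouped by their labels. T/R ratios of the same cells were taken from the study and only coefficients are given.

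Values were put on a log2 (TPM + 1) scale, which understates the change of low genes. A gene was detected above TPM 1, and the 13439 genes averaging 1 TPM or more were the background. The curve CV2 = a1/mean + a0 was fitted over them. Partial rho was given the number of detected genes. Detection intervals are exact (Clopper-Pearson), while the limits of 2.48% and 5.66% for 0 cells are 3 divided by the number of cells. Named genes were the 10 members, of each pathway list at most 4 genes averaging 10 TPM or more (the highest mean and the largest long-short differences), and the 3 genes most like each member detected in at least 25% of cells. Members and lists were chosen with earlier results of these data known. Calculations were tested on simulated data, in which 200 of 200 planted correlations among 13439 genes and 121 cells were recovered. The planted genes had no zeros and the other genes were shuffled over cells. This checked the calculation only, and not recovery under the zeros and shared depth of the data. No cells had identical values. Alternatives were other pseudocounts, detection thresholds, filters, medians, scalings, coefficients and cell sets, and, added after seeing the data, leaving out a gene's highest cell or a gene-rich short telomere cell. The work used Python 3.11.15 with pandas 2.3.3, scipy 1.17.1, numpy 2.4.6 and, for plots, matplotlib 3.10.9. Gene positions are from a GENCODE annotation of GRCh37.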

Additional observations from a re-analysis of the deposited data

How the results depend on the processing

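No paired analysis was possible because the labels number the cells within each telomere group only and the results come from no test. The count of genes at least 1 higher in long than in short telomere cells, 5, was 9 with a pseudocount of 0.1, 2 with a pseudocount of 10, 2 in gene-rich cells and 3 in gene-poor cells, and the median difference of 1.00 was 1.74, 0.361 and 0.211 under the first 3 of these. Without a filter on low values, 20.4% of genes in place of 38.9% were at least 1 higher. The median percentage of cells in which a member was detected, 67.8%, was 74.8% above TPM 0 and 31.0% above TPM 10. In gene-rich cells, 5 members in place of 3 lay above the CV2 curve. The median rho of the 45 pairs, 0.176, was 0.0209 given the number of detected genes and reversed to −0.0064 in gene-rich cells. The r of FOXH1 with the T/R ratio, 0.140, reversed to −0.0497 without its highest cell. NODAL, 1.94 higher in long telomere cells, reversed to −0.48 in gene-rich cells. Leaving out 1 of the 3 gene-rich short telomere cells at a time gave −1.32 to 2.76 for GDF3 and −2.70 to 0.28 for CER1. Of the other summary values under an alternative, 18 stayed within the limits set (0.5 for log2 differences, 0.1 for correlations, 5 for percentages and 1.5 times for counts), 1 of them with a change of sign, the median r with the T/R ratio (0.0776, and −0.0220 in gene-rich cells). For single genes, whose log2 differences were read against 1 SD across long telomere cells, 119 values stayed within the limits (3 with a change of sign) and 29 moved (2 with a change of sign). The causes were not tested. Each group is 1 sample of cells, and the 3 gene-rich short telomere cells limit every comparison among gene-rich cells.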

Other observations

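The BMP arm, the other receptor-SMAD branch of the TGF-β superfamily, was read from 17 genes, of which 9 were detected in at least 50% of cells. Of the 13 with a mean TPM of at least 1, 7 were at least 1 higher in long than in short telomere cells over all cells (38.9% of all genes), and 1 was in gene-rich cells (11.4%). The targets ID1, ID2 and ID3 were abundant, with medians of 119, 76.5 and 140 TPM, and ID1 differed by 2.79, ID2 by 2.25 and ID3 by 1.45 on the log2 (TPM + 1) scale over all cells. In gene-rich cells ID1 differed by 0.07, ID2 by 0.56 and ID3 by −0.52. The receptor gene BMPR1A differed by 1.99 over all cells and by −0.39 in gene-rich cells. With NODAL, ID1 had a rho of 0.456 over all and 0.393 in gene-rich cells, ID2 of 0.128 and −0.248, and ID3 of −0.173 and −0.312.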
